A study of Mus musculus with 4 samples.

Results

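The genes described here are the neurotrophins Bdnf and Ntf3 and the neurotrophin receptors Ngfr, Ntrk2 and Ntrk3, 5 genes chosen by name out of 32285 listed genes (31053 in the E15.5 table). They were followed by single-cell RNA-seq (scRNA-seq, 10x Genomics 3′ libraries) of mammary cells from female wild-type C57B6 mice (substrain C57 B6/N per the methods) at embryonic days E13.5, E14.5 and E15.5 and at birth (P0), with 1 library per stage. Each library pooled mammary rudiments or glands of several females from several litters, together with the surrounding mesenchyme, dissected in a session of its own. Live cells were sorted after exclusion of CD45+, CD31+ and Ter119+ cells, and epithelial (EpCAM+) and stromal (EpCAM-) cells were taken. P0 glands were digested with more collagenase and less hyaluronidase than the embryonic rudiments, and their red blood cells were lysed. Stage, library, dissection and digestion therefore cannot be told apart, and no test or p-value could be computed.

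Cells with at least 5000 UMIs (unique molecular identifiers, the distinct transcripts counted) and at most 6% mitochondrial UMIs were kept. They were placed by the larger of 2 sums, the epithelial markers Epcam, Krt8, Krt18, Krt5 and Krt14 or the fibrillar collagens Col1a1, Col1a2 and Col3a1. From the youngest to the oldest stage the mesenchyme held 135, 31, 283 and 273 cells and the epithelium 98, 45, 532 and 230 cells. Series of 4 values below follow that order. The study set contaminating skin cells aside before it analyzed the mammary epithelium, but the placement here did not. The epithelium below thus includes skin cells, and their share at each stage was not determined. The 5 mesenchymal transcripts Pdgfra, Twist1, Twist2, Dcn and Lum, which the placement did not use, summed to between 1891 and 5915 counts per 1000000 UMIs (CPM) in the mesenchyme and between 21.4 and 56.5 CPM in the epithelium. The 5 epithelial transcripts Cdh1, Esrp1, Cldn7, Trp63 and Perp summed to between 1193 and 1876 CPM in the epithelium and between 3.58 and 61.3 CPM in the mesenchyme. Mesenchymal cells had a median of 16438, 24268, 24376 and 8743 UMIs at the 4 stages, and kept cells of different libraries shared 0 barcodes. A level below is the summed UMIs of a gene over all UMIs of a group of cells, and values in parentheses after a level, fold or share are exact 95% intervals (Poisson, conditional binomial and binomial), which cover counting error only.

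Neurotrophins are secreted factors that keep sensory and sympathetic neurons alive and guide their axons to a target tissue. Each is made as a precursor and binds a Trk receptor tyrosine kinase, BDNF and NT-4 (Ntf5) TrkB (Ntrk2) and NT-3 (Ntf3) TrkC (Ntrk3), and all of them also bind p75 (Ngfr). TrkB exists as a full-length kinase and as truncated forms that bind BDNF without the kinase domain, and in the mouse mammary bud BDNF from the mesenchyme and truncated TrkB are known to control early sensory innervation.

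The files count UMIs per gene, so the forms of Ntrk2 were summed. In GENCODE M21 (GRCm38), Ntrk2 lies on the plus strand at chr13:58806569-59133970 and has 7 protein-coding transcripts with 6 different 3′ ends, spread over 255 kb. The last 36 coding bases of the 5 different reading frames are shown because they are where the receptor forms part, with the stop codon in capitals.
Ntrk2-201 and Ntrk2-207 (full length, 821 codons): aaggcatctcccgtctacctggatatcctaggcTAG
Ntrk2-202 and Ntrk2-204 (476 codons): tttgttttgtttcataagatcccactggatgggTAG
Ntrk2-205 (492 codons): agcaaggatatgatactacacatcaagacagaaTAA
Ntrk2-208 (466 codons): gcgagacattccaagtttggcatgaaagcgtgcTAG
Ntrk2-209 (489 codons): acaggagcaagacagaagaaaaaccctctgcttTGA
The 2 full-length transcripts end at positions 59133970 and 59129965 and the pair of 476 codons at 58937027 and 58933120, so 3′ reads of the forms fall in different places, but a table of counts per gene does not keep them apart. Ntrk3 (minus strand, chr7:78175959-78738012) has 6 protein-coding transcripts with 6 different ends and the same limit applies.

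The transcripts of Bdnf (plus strand, chr2:109674700-109727007) share 1 end and begin at 9 different starts, so its UMIs cannot be assigned to a promoter either. Ntf3 (minus strand, chr6:126101412-126166910) has 3 coding transcripts with 1 end, and Ngfr (minus strand, chr11:95568818-95587735) has 1. RefSeq promoter windows (GRCm38) matched Bdnf 7 times, Ntf3 2 times and Ngfr and Ntrk2 once each. The 250 bases before a start are shown for Ntrk2 and for 1 of the Bdnf windows, which was chosen because it holds the motif described next. Capitals mark TGACG or its reverse complement CGTCA, the core of the cyclic AMP response element.
Bdnf, chr2:109692186-109692435, plus strand: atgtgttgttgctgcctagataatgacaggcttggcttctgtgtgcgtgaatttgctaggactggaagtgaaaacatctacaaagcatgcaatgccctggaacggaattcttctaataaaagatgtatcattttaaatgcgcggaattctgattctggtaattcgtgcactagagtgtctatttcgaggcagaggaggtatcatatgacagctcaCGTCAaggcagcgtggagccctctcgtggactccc
Ntrk2, chr13:58806319-58806568, plus strand: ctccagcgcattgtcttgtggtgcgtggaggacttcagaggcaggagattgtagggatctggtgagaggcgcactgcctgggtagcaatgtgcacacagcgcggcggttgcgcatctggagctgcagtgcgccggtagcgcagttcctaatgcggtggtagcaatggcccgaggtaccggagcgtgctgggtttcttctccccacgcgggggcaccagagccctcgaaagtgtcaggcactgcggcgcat
The motif, searched on both strands, was in 1 of the 7 Bdnf windows, where it began 35 bases before the start, and in none of the Ntf3, Ngfr and Ntrk2 windows. Of all 32851 windows of this length, 17.8% held it. These matches describe letters only and say nothing of binding in these cells.

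Bdnf was a mesenchymal transcript that was highest at E15.5 and almost gone at birth. Its level in the mesenchyme was 58.1 CPM (48.9 to 68.6) in the E13.5 library, 69.2 CPM (52.6 to 89.5) in the E14.5 library, 281 CPM (269 to 293) in the E15.5 library and 2.39 CPM (0.878 to 5.21) in the P0 library. The epithelium of the same libraries held 0.490, 11.0, 4.97 and 0.382 CPM. Bdnf was thus higher in the mesenchyme than in the epithelium in all 4 libraries, although at P0 only 6 UMIs against 1 were counted and the interval of the ratio included 1 (6.26-fold, 0.759 to 288). The mesenchymal level was 119-fold the epithelial one in the E13.5 library (20.95 to 4721, against 1 epithelial UMI), 6.29-fold in the E14.5 library (3.47 to 12.2) and 56.5-fold in the E15.5 library (44.6 to 72.7).

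Between stages, mesenchymal Bdnf was 4.83-fold higher at E15.5 than at E13.5 (4.07 to 5.77) and 117-fold higher at E15.5 than at P0 (53.8 to 320). E14.5 and E13.5 were not apart (1.19-fold, 0.861 to 1.63). Without cells that carried markers of other cell types, 10 of the 31 mesenchymal cells at E14.5, this ratio was 1.79 (1.26 to 2.51), and that of E15.5 over E14.5 went from 4.06 to 2.80 (2.14 to 3.74). The E15.5 table was made with another Cell Ranger version and gene list than the other 3, so that comparisons with E15.5 also cross that difference.

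**Figure D1:**
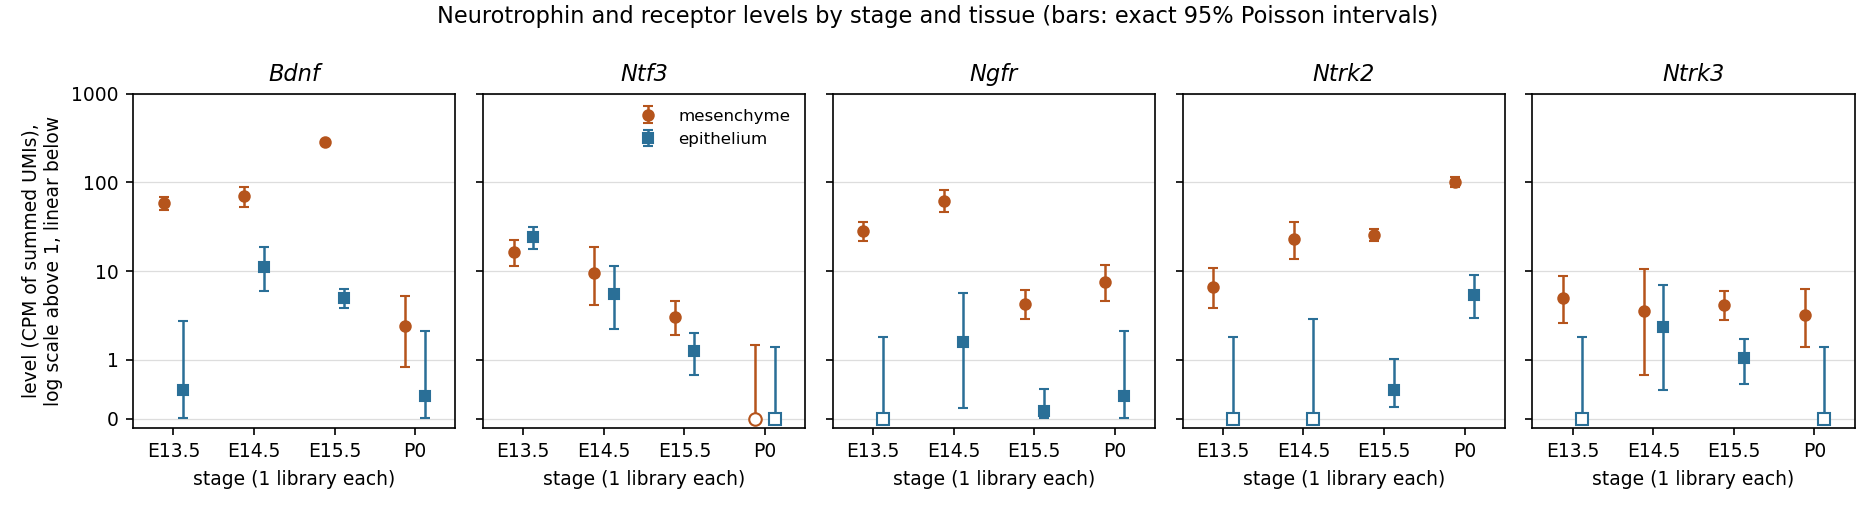
Level of each gene in CPM by stage, with mesenchyme as circles and epithelium as squares, on an axis that is logarithmic above 1 and linear below, exact 95% Poisson intervals as bars and open symbols for 0 UMIs. Mesenchymal Bdnf peaked at 281 CPM at E15.5 and mesenchymal Ntrk2 was highest, at 100.1 CPM, at P0, while Ntf3 was at 0 UMIs in both tissues at P0.

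The rise of Bdnf was carried by most mesenchymal cells and not by a few. A Bdnf UMI was found in 41 of 135 mesenchymal cells in the E13.5 library (30.4%, 22.8 to 38.9), 14 of 31 in the E14.5 library (45.2%, 27.3 to 64.0), 247 of 283 in the E15.5 library (87.3%, 82.8 to 90.9) and 5 of 273 in the P0 library (1.83%, 0.597 to 4.22). Cells differ in depth, so every cell was also thinned at random to 5000 UMIs, which gave 17.8%, 25.8%, 61.5% and 0.733%. The order of the stages stayed as it was before thinning. At E15.5 the median mesenchymal cell held 5 Bdnf UMIs, 80 cells held 10 or more, and the highest held 40. The 10% of cells with the most Bdnf UMIs carried 32.3% of them at E15.5 and 64.3% at E13.5, where the median cell held 0. In the epithelium, 40 of 532 cells had a Bdnf UMI at E15.5 (7.52%, thinned 1.5%).

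**Figure D2:**
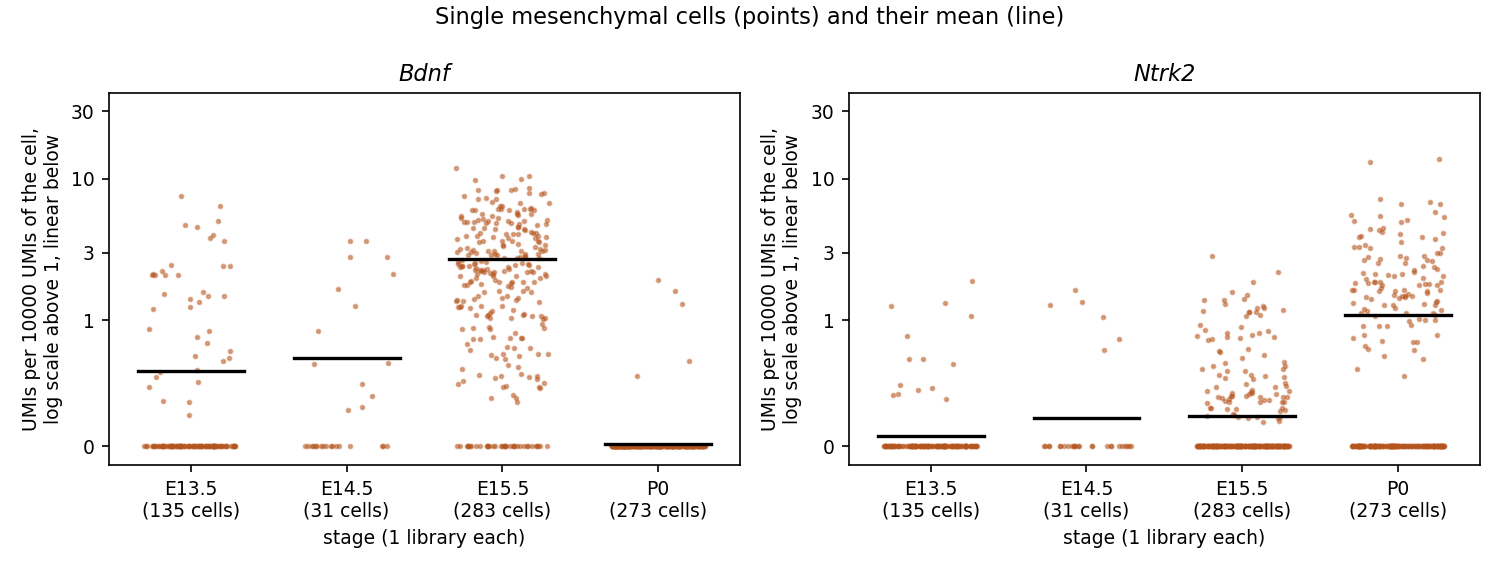
Bdnf and Ntrk2 UMIs per 10000 UMIs of each mesenchymal cell (points) and the mean over cells (line) by stage, on an axis that is logarithmic above 1 and linear below. Most of the 283 cells at E15.5 lie above 0 for Bdnf and most of the 273 cells at P0 lie at 0, and Ntrk2 shows its highest mean at P0.

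Epithelial Bdnf was set against the epithelial level of mesenchymal transcripts. The 5 mesenchymal transcripts named above were found in the epithelium at 2.62%, 1.92%, 1.09% and 0.362% of their mesenchymal level over the 4 stages. Dcn carried most of that epithelial sum, with 9.03% at E13.5 and 2.72% at E15.5, while the other 4 genes were at 0.329% to 0.506% and 0.288% to 0.668% at these stages. Bdnf, at 0.843% and 1.77%, lay between Dcn and the other 4. At E14.5 it was at 15.9%, with 14 UMIs in 5 epithelial cells, and at P0 the single epithelial UMI gave 16.0%. Of the 71 epithelial Bdnf UMIs at E15.5, 1 cell held 13. The part of carried-over RNA in these values was not tested.

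Within the mesenchyme, cells were placed by genes that the study, on these E15.5 cells and by staining or in situ hybridization, assigned to tissue zones, the sub-epithelial markers Esr1, Lef1, Crabp1 and Vcan next to the bud and the dermal markers Plagl1 and Cdkn1c further away. Each cell was placed in the range whose sum, scaled to its mean over the mesenchymal cells of that stage, was larger. This is a division of a continuum within a stage and not a cell type. At E13.5 and E14.5, Bdnf was concentrated in the sub-epithelial range, and at E15.5 it was high in both. Its level was 99.2 CPM in 62 sub-epithelial cells and 26.5 CPM in 73 dermal cells at E13.5, a 3.75-fold difference (2.54 to 5.64). In the 14 and 17 cells of E14.5 it was 128 and 21.6 CPM (5.92-fold, 2.96 to 13.1). At E15.5 it was 315 CPM in 181 sub-epithelial and 204 CPM in 102 dermal cells (1.55-fold, 1.39 to 1.72). Of the members with at least 20 UMIs in the pair of ranges, Bdnf, Ntf3 and Ngfr were at least 2-fold higher in the sub-epithelial range at E13.5, Bdnf at E14.5 and Ngfr at E15.5, beside 4.39%, 6.96% and 7.83% of all genes at these stages. With only the cells whose larger sum was at least 2 times the other, the Bdnf ratios were 6.65, 9.07 and 1.73. A factor under 1.5 separated the sums in 7 sub-epithelial and 7 dermal cells of E13.5, 1 and 1 of E14.5 and 7 and 12 of E15.5.

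The dermal level itself was 26.5, 21.6 and 204 CPM over the 3 embryonic stages, so the higher Bdnf at E15.5 was found in both ranges. In single cells thinned to 5000 UMIs, Bdnf was present in 75.4% of the 69 E15.5 mesenchymal cells with an Esr1 UMI (the estrogen receptor, one of the sub-epithelial markers) and in 57.0% of those without. For Pth1r, the receptor of the epithelial hormone PTHrP that specifies mammary mesenchyme, the shares at E15.5 were 55.6% of 72 cells with a UMI and 63.5% of those without, where all UMIs gave 88.4% and 85.1%. At E13.5 the thinned shares were 21.3% of 47 cells and 15.9%, and at E14.5 36.8% of 19 cells and 8.33%. Pth1r itself was at 107, 173, 60.3 and 25.1 CPM in the mesenchyme of the 4 stages.

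**Figure D3:**
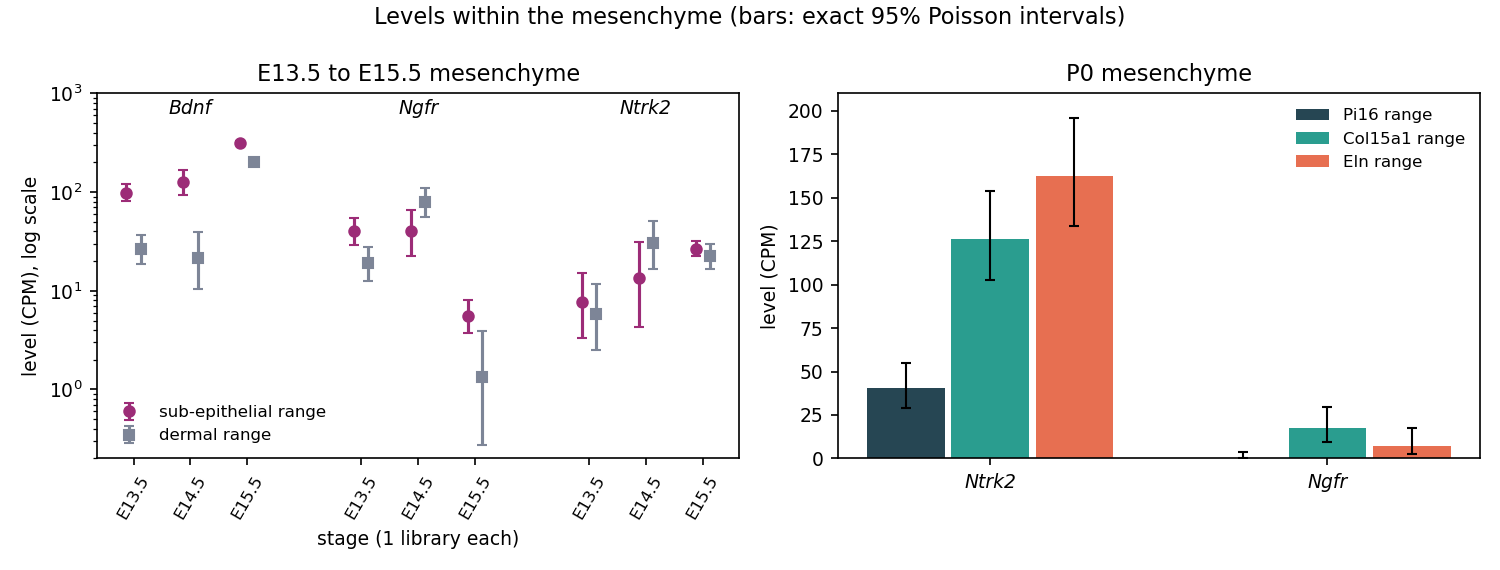
Levels in CPM within the mesenchyme with exact 95% Poisson intervals, at left Bdnf, Ngfr and Ntrk2 in the sub-epithelial (circles) and dermal (squares) ranges of the embryonic stages on a log axis, at right Ntrk2 and Ngfr in 3 fibroblast ranges at P0 on a linear axis from 0. Bdnf lies higher in the sub-epithelial range at every embryonic stage, and Ntrk2 at P0 is lowest in the Pi16 range (40.5 CPM).

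Ntf3, which encodes NT-3, was found in both tissues early and was lower in both by E15.5. In the mesenchyme of the 3 embryonic stages it was at 16.2 CPM (11.5 to 22.1), 9.55 CPM (4.12 to 18.8) and 3.03 CPM (1.90 to 4.59). There E14.5 and E13.5 were not apart (0.590-fold, 0.238 to 1.28). In the epithelium it was at 24.0 CPM (17.8 to 31.7), 5.50 CPM (2.21 to 11.3) and 1.26 CPM (0.746 to 1.99) at these stages. At P0 it had 0 UMIs in both tissues, with exact upper limits of 1.47 CPM in the mesenchyme and 1.41 CPM in the epithelium. The 3 counts used in place of 0 in folds stand for 1.196 and 1.147 CPM.

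Ntf3 was the only one of the 5 genes that was not higher in the mesenchyme at E13.5, where the ratio of mesenchyme to epithelium was 0.675 with an interval that included 1 (0.431 to 1.05). At E14.5 the ratio was 1.74 (0.550 to 5.62) and at E15.5 it was 2.41 (1.23 to 4.76). The level at E13.5 exceeded that at E15.5 by 5.34-fold in the mesenchyme (3.09 to 9.46) and 19.1-fold in the epithelium (10.9 to 34.8). Skin cells were included in the epithelial fold. With 3 counts in place of 0 at P0, the E13.5 level was 13.54-fold higher in the mesenchyme and 20.9-fold higher in the epithelium. The exact lower limits were 10.5 and 16.4. A Ntf3 UMI was present in 20% of mesenchymal and 27.6% of epithelial cells at E13.5, or 5.93% and 9.18% after thinning, and no cell of either tissue held more than 8.

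In the E13.5 epithelium, Ntf3 was at 27.2 CPM (18.0 to 39.3) in the 48 cells with the larger scaled sum of bud markers (Ndnf, Msx1, Tbx3, Sostdc1, Pthlh, Wnt6 and Wnt10b) and at 20.8 CPM (12.9 to 31.8) in the 50 cells with that of skin markers (Krt15, Col17a1, Krt17, Gabrp, Hopx, Krt1 and Krt10), a division added after the data had been seen. These values were not apart (1.31-fold, 0.716 to 2.42). In the mesenchyme of that stage it was at 23.8 CPM in the sub-epithelial and 10.3 CPM in the dermal range (2.32-fold, 1.16 to 4.82), and with the stricter placement the ratio was 1.86 and its interval included 1 (0.839 to 4.28).

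Ngfr, which encodes the p75 receptor, was almost entirely mesenchymal, with 170 of its 175 UMIs in that tissue. Over the 4 stages its mesenchymal level was 28.2 CPM (21.9 to 35.8), 62.1 CPM (46.3 to 81.4), 4.27 CPM (2.90 to 6.06) and 7.58 CPM (4.56 to 11.8). In the epithelium, 0, 2, 2 and 1 UMIs were counted at the 4 stages. With 3 counts in place of 0 in the epithelium, the mesenchyme was 19.2-fold higher in the E13.5 library (exact lower limit 15.2). It was 39.5-fold (10.4 to 335), 30.5-fold (7.77 to 263) and 19.8-fold (3.15 to 823) higher in the later ones.

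Mesenchymal Ngfr was 6.61-fold higher at E13.5 than at E15.5 (4.26 to 10.5), and the share of mesenchymal cells with a Ngfr UMI was 24.4%, 38.7%, 10.2% and 4.76% at the 4 stages (thinned 8.89%, 9.68%, 2.47% and 3.66%). The value at E14.5 rested on few cells, as 1 of the 31 held 29 of the 52 UMIs. Leaving out that cell and the highest cell of E13.5 took the ratio of E14.5 to E13.5 from 2.20 (1.502 to 3.20) to 1.12 (0.660 to 1.83). Leaving out all cells with markers of other types instead took it to 1.57 (0.829 to 2.86). Cells with pericyte and smooth muscle markers (Rgs5, Kcnj8, Abcc9, Cspg4, Notch3 and Myh11) held a larger part of the Ngfr UMIs at E13.5 and E14.5 than later. The 9 mesenchymal cells of E14.5 with at least 3 UMIs from at least 2 of these genes held 33 of the 52 Ngfr UMIs, and 12 such cells of E13.5 held 24 of 68. At E15.5 and P0, 12 and 23 such cells held 1 of 31 and 3 of 19. The 33 UMIs at E14.5 include the 29 of the 1 cell named above, so the E14.5 value rested mainly on that cell. The list summed to 57.3, 75.2, 30.03 and 107 CPM in the mesenchyme at the 4 stages, with Myh11 at 0 UMIs at E14.5. In the epithelium it summed to 31.3, 49.5, 46.7 and 48.6 CPM, so its genes were not confined to the mesenchyme. The part of pericyte-marked cells in the Ngfr level was not tested.

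Within the mesenchyme, Ngfr was higher in the sub-epithelial range at E13.5 (40.1 against 19.1 CPM, 2.10-fold, 1.26 to 3.56) and at E15.5 (28 UMIs against 3, 4.21-fold, 1.30 to 21.7). At E14.5 it was lower there (40.0 against 79.9 CPM, 0.500-fold, 0.255 to 0.934), in the library where 1 cell held most of the UMIs.

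Ntrk2, the TrkB gene, was mesenchymal at every stage and highest at birth. Its mesenchymal level went through 6.64 CPM (3.797 to 10.8), 22.7 CPM (13.7 to 35.4), 25.5 CPM (21.9 to 29.4) and 100.1 CPM (88.1 to 113) over the 4 stages. In the epithelium 0, 0, 7 and 14 UMIs were counted (5.35 CPM, 2.93 to 8.98, for the last). With 3 counts in place of 0 in the epithelium, the mesenchymal level was 4.52-fold higher at E13.5 and 9.62-fold higher at E14.5. The exact lower limits were 3.27 and 7.09. The mesenchymal level was 52.0-fold higher at E15.5 (24.8 to 131) and 18.7-fold higher at P0 (10.9 to 34.7).

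Mesenchymal Ntrk2 was 3.84-fold higher at E15.5 than at E13.5 (2.30 to 6.85) and 3.93-fold higher at P0 than at E15.5 (3.24 to 4.78), so its course from E15.5 to P0 ran opposite to that of Bdnf. E15.5 and E14.5 were not apart (1.12-fold, 0.700 to 1.91). At E14.5, the 9 cells with pericyte and smooth muscle markers held 13 of the 19 Ntrk2 UMIs, and without all cells with markers of other types the ratio of E14.5 to E13.5 went from 3.41 (1.66 to 7.10) to 1.58 (0.491 to 4.45) and that of E15.5 to E14.5 to 2.12 (0.955 to 5.87). At E15.5 and P0 such pericyte-marked cells held 17 of 185 and 23 of 251 Ntrk2 UMIs, and without the cells marked for any other type P0 was 4.32-fold above E15.5 (3.52 to 5.33).

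The rise of Ntrk2 from E15.5 to P0 was seen in the share of cells as well as in the summed level. A Ntrk2 UMI was present in 10.4%, 19.4%, 34.6% and 44.0% of mesenchymal cells at the 4 stages. Thinned to 5000 UMIs, the shares were 3.70%, 9.68%, 8.48% and 33.0% (27.4 to 38.9), so that the gap between E15.5 and P0 was larger at matched depth. The highest mesenchymal cell held 8 Ntrk2 UMIs at P0 and 9 at E15.5.

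**Figure D4:**
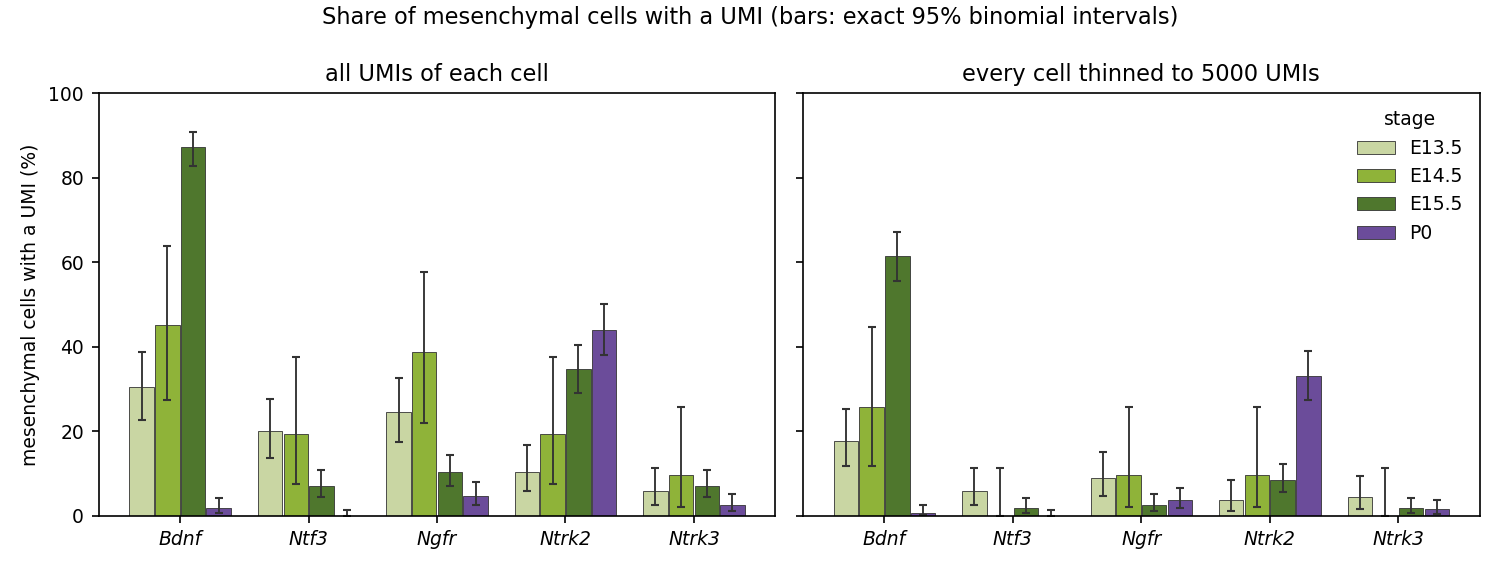
Share of mesenchymal cells with a UMI of each gene at the 4 stages, from all UMIs (left) and after thinning every cell to 5000 UMIs (right), with exact 95% binomial intervals. Bdnf falls from 61.5% at E15.5 to 0.733% at P0 after thinning, and Ntrk2 goes from 8.48% to 33.0%.

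At P0, Ntrk2 differed between fibroblast ranges placed by the largest of 3 scaled marker sums (Pi16, Dpp4, Sema3c and Wnt2, or Col15a1, Fabp4, Pparg and Aoc3, or Eln, Mfap4 and Mgp), a division also added after the data had been seen, from markers chosen in the study on this library. The level was 40.5 CPM (29.0 to 54.9) in the 97 cells of the Pi16 range, 126 CPM (103 to 154) in the 92 cells of the Col15a1 range and 163 CPM (134 to 196) in the 79 cells of the Eln range. The Pi16 range was lower than the Col15a1 range (0.320-fold, 0.217 to 0.465) and the Eln range (0.249-fold, 0.169 to 0.359), whereas the Col15a1 and Eln ranges were not apart (0.778-fold, 0.587 to 1.03). Of all genes with at least 20 UMIs in these pairs, 7.21% and 5.51% were at least 2-fold lower in the Pi16 range, as was Ntrk2 in both. Thinned shares of cells with a Ntrk2 UMI were 15.46%, 39.1% and 49.4%. The other 5 mesenchymal cells of P0 were placed in no range. Embryonic Ntrk2 was not apart between sub-epithelial and dermal ranges, at 26.8 and 22.6 CPM at E15.5 (1.19-fold, 0.853 to 1.67).

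In the P0 epithelium, 12 of 230 cells (5.22%) had a Ntrk2 UMI. The epithelial level was 5.35% of the mesenchymal one, against 0.362% for the sum of the 5 mesenchymal transcripts named above. The part of carried-over RNA in it was not tested. The 65 cells with the larger scaled sum of basal markers (Acta2, Myh11, Oxtr, Krt14 and Krt5) held 6 of the epithelial Ntrk2 UMIs. The 165 with that of luminal markers (Krt8, Krt18, Krt19, Cldn4 and Aldh1a3) held 8. These ranges divide a score and are not cell types.

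Ntrk3, the TrkC gene, was low at all stages. The mesenchyme held 4.98 CPM (2.57 to 8.70), 3.58 CPM (0.738 to 10.5), 4.13 CPM (2.79 to 5.90) and 3.19 CPM (1.38 to 6.29) over the 4 stages, and every ratio between stages had an interval that included 1. In the epithelium it had 0, 3, 15 and 0 UMIs. At E15.5 the mesenchyme was 3.94-fold higher (2.05 to 7.87), and 12 of the 15 epithelial UMIs were in the 187 cells with more luminal markers (Anxa1, Ly6d, Lgals3 and Plet1; 2.27 CPM, 1.17 to 3.97) and 3 in the 344 with more basal markers (Cxcl14, Pthlh, Lmo1 and Ndnf; 0.334 CPM, 0.0688 to 0.975). Skin cells were not set apart in either of these ranges, which divide a score and are not cell types. Changes of Ntrk3 within these intervals were not detectable at this depth.

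Read over all 5 genes, the mesenchyme was at least 2-fold higher for 2 of the 3 that reached 20 UMIs at E13.5 (Bdnf and Ngfr, not Ntf3), for both tested at E14.5 (Bdnf and Ngfr), for all 5 at E15.5 and for both tested at P0 (Ngfr and Ntrk2). Of all genes tested in the same way, 21.9%, 17.5%, 22.5% and 18.9% were that much higher in the mesenchyme at these stages, and 10.3%, 14.7%, 16.8% and 24.7% that much lower, as none of the members was. Ngfr reached 20 UMIs through the mesenchyme, with 68 UMIs there and 0 in the epithelium at E13.5, 52 and 2 at E14.5 and 19 and 1 at P0. So did Ntrk2 at P0, with 251 and 14, and Bdnf with 140 and 1 at E13.5 and 58 and 14 at E14.5. At E15.5 the mesenchyme but not the epithelium reached 20 for Ngfr (31 and 2), Ntrk2 (185 and 7), Ntrk3 (30 and 15) and Ntf3 (22 and 18). Members that passed in this way were thereby selected for high counts in the mesenchyme, so these counts are a description and not a test. From E13.5 to E14.5 in the mesenchyme, Ngfr and Ntrk2 of 4 tested genes were at least 2-fold higher, as were 6.03% of all genes. Neither stayed at 2-fold without the cells with markers of other types (1.57 and 1.58), nor did Ngfr without the highest cell of each stage (1.12). From E13.5 to E15.5, Bdnf and Ntrk2 were at least 2-fold higher (8.16% of all genes) and Ntf3 and Ngfr at least 2-fold lower (13.8%). From E15.5 to P0, 1 gene, Ntrk2, was at least 2-fold higher (14.3%), and Bdnf and Ntf3 were at least 2-fold lower (28.2%). For Ntf3, with 0 UMIs at P0 against 22, the exact upper limit of 0.529 did not exclude a drop of less than 2-fold.

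Thinned to 5000 UMIs, 65.7% of mesenchymal cells at E15.5 had a UMI of at least 1 member while 25 cells had 2 and 2 cells had 3, against 37.0%, 41.9% and 36.3% with any at E13.5, E14.5 and P0 and between 3.01% and 9.18% in the epithelium. Bdnf and Ntrk2, ligand and receptor, were found together in 92 of the 283 E15.5 mesenchymal cells (32.5%), where the product of their separate shares gives 30.2%. After thinning, 16 cells (5.65%) held both and the product was 5.21%. Bdnf with Ngfr was found in 28 of these cells (9.89%, product 8.94%), with Ntf3 in 18 (6.36%, product 6.17%) and with Ntrk3 in 18 (6.36%, product 6.17%). Counting all UMIs, Bdnf was present in 93.9% of cells with an Ntrk2 UMI and 83.8% of those without, and in 96.6% of cells with an Ngfr UMI and 86.2% of those without. The cells with both transcripts were also deeper, with a median of 27498 UMIs for Ntrk2 and 27921 for Ngfr, against 24376 over all. After thinning the shares were 66.7% and 61.0% for Ntrk2 and 57.1% of 7 cells and 61.6% for Ngfr.

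Other genes of the pathway were taken from a list of 42 ligands, receptors, processing enzymes, adaptors and other neurotrophic factors. Of the 33, 29, 37 and 28 of them that reached 20 UMIs at the 4 stages, 14, 9, 16 and 11 were at least 2-fold higher in the mesenchyme and 5, 5, 3 and 6 at least 2-fold higher in the epithelium. Of all genes tested, 21.9%, 17.5%, 22.5% and 18.9% were that much higher in the mesenchyme and 10.3%, 14.7%, 16.8% and 24.7% in the epithelium. The median log2 ratio of mesenchyme to epithelium over the list was 0.79, -0.07, 0.62 and 0.03, beside 0.18, -0.02, 0.10 and -0.30 over all genes tested. Some genes reached 20 UMIs only through the tissue where they were high. At E13.5, for example, Cntfr did so through the mesenchyme (142 UMIs against 2) and Ntf5 through the epithelium (37 against 3). These counts and medians are thus a description and not a test. In the mesenchyme from E15.5 to P0, 6 of 35 tested genes were at least 2-fold higher and 16 at least 2-fold lower (14.3% and 28.2% of all genes), with a median log2 ratio of -0.68, beside -0.42 over all genes.

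Among the other receptors, Sort1, which encodes sortilin, the partner of p75 for unprocessed neurotrophins, was at 21.2, 26.3, 9.64 and 3.59 CPM in the mesenchyme and at 10.3, 22.0, 15.6 and 16.1 CPM in the epithelium. It was thus 2.06-fold higher in the mesenchyme at E13.5 (1.22 to 3.60) and 4.48-fold higher in the epithelium at P0 (2.15 to 10.5). Sorcs2, another sortilin-family receptor, was at 41.9, 59.7, 31.3 and 9.97 CPM in the mesenchyme, against 4.90, 13.4, 10.1 and 8.80 CPM in the epithelium. At P0 the tissues were not apart (1.13-fold, 0.617 to 2.09).

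The 4 enzymes of precursor cleavage on the list were at their highest mesenchymal level at P0. Of these, Plat, Pcsk5 and Pcsk6 were at least 2-fold higher at P0 than at E15.5, as were 14.3% of all genes, and Furin was not. Plat, tissue plasminogen activator, which turns plasminogen into the plasmin that cleaves proBDNF, was at 49.8, 52.5, 23.4 and 229 CPM in the mesenchyme of the 4 stages. The proprotein convertases Pcsk5 and Pcsk6 went from 9.50 and 16.3 CPM at E15.5 to 104 and 113 CPM at P0. Furin, the convertase of the secretory pathway, was at 31.1, 27.4, 47.5 and 62.6 CPM in the mesenchyme and between 39.3 and 67.0 CPM in the epithelium. Nrg1, a growth factor of the neuregulin family, was at 64.5 CPM in the E15.5 mesenchyme and at 80.7 CPM in the P0 epithelium, and Sema3a, a secreted axon repellent, was at 50.2, 60.9, 56.9 and 19.1 CPM in the mesenchyme.

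Over the 8 stage and tissue groups, the 3 genes whose log2(CPM + 10) was most correlated with that of each member were named as a description, among 8805 genes with at least 20 CPM in 1 group. They were Unc5c (a netrin receptor), Adcy2 and Hoxb9 for Bdnf (Pearson's r 0.982, 0.982 and 0.978), Get4, Cdt1 and Sord for Ntf3 (0.976, 0.961 and 0.960), Tbx1, Thsd7a and Nlgn2 for Ngfr (0.998, 0.987 and 0.986), Fcgrt, Anpep and Tnfaip6 for Ntrk2 (0.990, 0.988 and 0.988), and Dact1, Sfmbt1 and Oaz2 for Ntrk3 (0.977, 0.974 and 0.971). The 8 points share 4 libraries in pairs, and the levels of Ntrk3 rest on few UMIs. The highest Ngfr point, the E14.5 mesenchyme, had 29 of its 52 UMIs in 1 cell.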

How the data were processed

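For every stage the authors deposited raw UMI counts in 1 table, made with Cell Ranger (6.0.0 in the submitters' processing notes; the E15.5 file header gives 3.1.0) on a pre-built mm10 reference. Tables held 981, 807, 2642 and 1466 barcodes of at least 500 UMIs, of which 235, 76, 816 and 503 passed the study's filter, more than the study kept at each stage; doublets were excluded at the sort and no caller was run. Of these, 2 cells of E13.5 and 1 of E15.5 were placed in no tissue. Genes were matched by Ensembl identifier (30406 common to all tables). Levels, folds and shares were computed in Python 3.11.15 (numpy 2.4.6, scipy 1.17.1). A fold against 0 UMIs used 3 counts, and genes with at least 20 summed UMIs were tested for a 2-fold difference. The interval functions were tested on simulated counts. Members, pathway list and marker lists were chosen with earlier results of these data known. The rule for named genes took the 5 members, ligands and receptors of the pathway list, other genes of the list with at least 50 CPM in 1 group, and 3 most alike genes per member; marker genes are named as lists. Some genes of these lists are not reported here.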

Additional observations from a re-analysis of the deposited data

Results flagged for a closer look

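The barcodes that the cell filter removed, 4266 in all, also held UMIs of the 5 genes, above the 3 counts taken as the limit of a count of 0. They held 220 Bdnf UMIs (19.1 CPM, 16.6 to 21.7), 31 Ntf3 UMIs (2.69 CPM), 62 Ngfr UMIs (5.37 CPM), 233 Ntrk2 UMIs (20.2 CPM, 17.7 to 22.9) and 21 Ntrk3 UMIs (1.82 CPM). By stage, Bdnf was at 17.5, 10.2, 25.6 and 3.54 CPM in them and Ntrk2 at 1.67, 2.73, 21.6 and 39.4 CPM, so the stage with the highest level was the same as in the kept mesenchyme for both genes. These barcodes were placed in no tissue, and they were used in no comparison.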

How the results depend on the processing

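Mesenchyme and epithelium were compared within each library, and no stage was replicated because each has 1 library. Of 127 recomputed ratios of mesenchyme to epithelium, 124 stayed within the interval of the reported value, as did 253 of 263 ratios between stages, and none turned its direction where the interval had excluded 1. Thinning to 5000 UMIs often left a group at 0 UMIs, which gives no value, so it was read for 6 and 21 of these ratios. It took Bdnf at E15.5 to 83.3-fold, Ntrk3 at E15.5 over E13.5 in the mesenchyme to 0.358 and Ntf3 at E15.5 over E13.5 in the epithelium to 0.117. Without cells with markers of other types, the folds with 3 counts for 0 of Ngfr at E13.5 and Ntrk2 at E14.5 became 13.7 and 4.78. In the mesenchyme Bdnf then became 1.79 (E14.5 over E13.5) and 2.80 (E15.5 over E14.5), and Ngfr 0.141 (E15.5 over E14.5). Ntrk2 became 1.58 (E14.5 over E13.5) and 2.12 (E15.5 over E14.5). Without the cell with the most UMIs at each stage, a setting chosen after seeing the data, Ngfr became 1.12 (E14.5 over E13.5) and 0.138 (E15.5 over E14.5). Without the 5% deepest cells, Ntf3 at P0 over E13.5 in the epithelium was 0.0731, with 3 counts for 0. The cause of these changes was not tested.

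Thinned shares of cells were lower, as fewer UMIs per cell are counted. In the mesenchyme they were 17.8%, 25.8% and 61.5% for Bdnf, 5.93%, 0 and 1.77% for Ntf3 and 8.89%, 9.68% and 2.47% for Ngfr at the 3 embryonic stages, 3.70%, 8.48% and 33.0% for Ntrk2 at E13.5, E15.5 and P0, and 1.77% for Ntrk3 at E15.5. In the epithelium they were 1.5% for Bdnf at E15.5, 9.18%, 0 and 1.13% for Ntf3 at the embryonic stages, and 0 for Ntrk2 and 0.564% for Ntrk3 at E15.5. Bdnf with Ntf3 went to 0.741% at E13.5 and 1.41% at E15.5, and with Ngfr, Ntrk2 and Ntrk3 to 1.41%, 5.65% and 1.06% at E15.5. With the stricter placement, Bdnf sub-epithelial over dermal was 6.65 at E13.5 and 1.73 at E15.5. Ngfr in the Pi16 over the Col15a1 range at P0 was then 0.338, with 3 counts for 0. The 31 mesenchymal cells of E14.5 and totals under 20 UMIs limit the precision.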

Other observations

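Ntf5, which encodes NT-4, had the opposite tissue pattern to Bdnf. It was at 18.1, 26.7, 11.3 and 5.35 CPM in the epithelium of the 4 stages and had 3, 1, 4 and 2 UMIs in the mesenchyme. At E15.5 it was 20.4-fold higher in the epithelium (7.83 to 75.9). Ntrk2, the gene of the receptor that binds NT-4, was mesenchymal in the same libraries.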
